A study of Mus musculus with 6 samples.

Results

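The genes described here are 47 mouse genes of endoplasmic reticulum (ER) stress and protein folding, taken as a fixed list of names. They comprise 17 ER chaperones and folding enzymes, 5 genes of ER-associated degradation, 4 ER stress sensors and their transcription factors, 7 genes of the ATF4 arm, 12 genes of cytosolic heat shock and 2 subunits of the mitochondrial chaperonin. A gene was measured through every array probe set that names it alone. By this rule 45 of the 47 had a probe set, of 18193 genes named in this way on the array. Hsp90ab1 and Hsf1 were not analysed here. Ero1l and Ero1lb appear under the names Ero1a and Ero1b, which the RefSeq gene table pairs with the older ones. All 45 passed the filter on low signals, as did 11893 genes in all.

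RNA came from 393P, a mouse lung cancer cell line, carrying either an empty pcDNA vector (control vector, 3 cultures) or a vector for constitutive Zeb1 expression (Zeb1 vector, 3 cultures). Both kinds of cell were stably transfected by lipofection and grown in the same medium with fetal bovine serum. Each culture gave 1 Affymetrix array. The labels do not say how many separate transfections or clones stand behind a group, so the spread between cultures, and every p-value drawn from it, describes these cell populations. Zeb1 is a zinc-finger repressor that shifts epithelial cells towards a mesenchymal state.

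The unfolded protein response senses misfolded protein in the ER lumen through 3 membrane proteins. IRE1, encoded by Ern1, splices the mRNA of the transcription factor Xbp1. ATF6 is cut in the Golgi to release a transcription factor. PERK, encoded by Eif2ak3, phosphorylates the translation factor eIF2alpha, which slows protein synthesis and lets the transcription factor ATF4 be made. IRE1 and ATF6 mainly raise chaperones and degradation genes, whereas ATF4 raises genes of amino acid supply and of stress-induced death. The cytosolic heat shock response is separate: it answers misfolded protein in the cytosol through the transcription factor HSF1, which raises cytosolic Hsp70, Hsp90 and small heat shock proteins.

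Promoter elements tie some of these genes to one of the responses, and they are shown here so that the changes of genes with and without them can be read beside each other. RefSeq promoters (assembly GRCm38.p6, 250 bases before to 50 bases after the start of transcription) were in the table for 40 of the 47. The ER stress element, which is CCAAT followed after 9 bases of any kind by CCACG, was searched on both strands. It was present in 39 of 32851 promoters in the table, or 0.119%, and in those of 8 of the 15 ER folding genes with a promoter there and of Syvn1. Each line gives the gene, the place and strand, and the sequence as transcribed, with the element in capitals. In Calr, Ero1b and Creld2 the element runs on the opposite strand and therefore reads as its reverse complement.
Hspa5 (chr2:34772015-34772053, plus strand): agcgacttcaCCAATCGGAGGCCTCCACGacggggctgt
Hsp90b1 (chr10:86705628-86705666, minus strand): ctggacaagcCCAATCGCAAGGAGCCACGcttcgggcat
Canx (chr11:50325790-50325828, minus strand): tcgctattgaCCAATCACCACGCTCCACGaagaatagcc
Pdia6 (chr12:17266481-17266519, plus strand): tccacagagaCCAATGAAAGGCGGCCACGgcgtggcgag
Dnajc3 (chr14:118937817-118937855, plus strand): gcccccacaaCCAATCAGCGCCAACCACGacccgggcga
Calr (chr8:84847065-84847103, minus strand): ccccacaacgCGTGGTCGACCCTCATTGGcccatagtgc
Ero1b (chr13:12565672-12565710, plus strand): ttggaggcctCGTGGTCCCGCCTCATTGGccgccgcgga
Creld2 (chr15:88819510-88819548, plus strand): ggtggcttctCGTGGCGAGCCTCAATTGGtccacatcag
Syvn1 (chr19:6046522-6046560, plus strand): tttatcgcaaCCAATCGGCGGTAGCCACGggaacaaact

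Hsp90b1 held another copy of the element, on the opposite strand. CCACG alone was in 14 of the 15 ER folding promoters, and in 32.8% of all promoters. CCAAT alone was likewise in 14 of the 15, and in 37.4% of all. These letters are a description of the window searched and do not show that a factor binds there. An exact match to an ATF4 element (TGATG, 1 base of any kind, AAT) was in 0.965% of all promoters and in 0 of the 7 ATF4 arm promoters. Variants of this element and sites further upstream were not searched, so the 0 does not show that these genes lack one. A heat shock element (3 exact units of GAA on alternating strands, 2 bases apart) was in 0.603% of all promoters. Among the members it was in those of Hspd1, Hspe1 and Hsph1, the last being 1 of 8 cytosolic heat shock genes with a promoter there. Units that depart from GAA were not counted, so a gene with no match here may still hold such an element.

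Hspd1 and Hspe1, which are read in opposite directions from a common promoter, share the same heat shock element, shown here from both sides with the element in capitals. In each promoter a second match overlaps this one.
Hspd1 (chr1:55088049-55088081, minus strand): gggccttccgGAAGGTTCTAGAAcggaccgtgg
Hspe1 (chr1:55088049-55088081, plus strand): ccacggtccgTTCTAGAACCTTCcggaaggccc

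Values are log2 signals of the probe set with the highest mean signal for each gene. Changes are Zeb1 vector minus control vector on the log2 scale, with the moderated standard error (SE) of limma. Rose and fell are used of genes with an adjusted p (limma, Benjamini-Hochberg over all 11893 genes) under 0.05. By this rule 16 of the 45 members rose and 9 fell (55.6% called), where 50.5% of all tested genes were called, 26.4% up and 24.1% down. The 3 arrays of each group did not overlap for 28 members (62.2%), against 58.2% of all genes. The share of members called was thus near that of the array as a whole. Of the members 5 (11.1%) were called with a change of 2-fold or more, against 15.8% of all genes, and the members ranged from -0.70 to 1.43. The counts in each direction varied by role, as the plot of changes by role shows; whether roles differ was not tested.

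**Figure D1:**
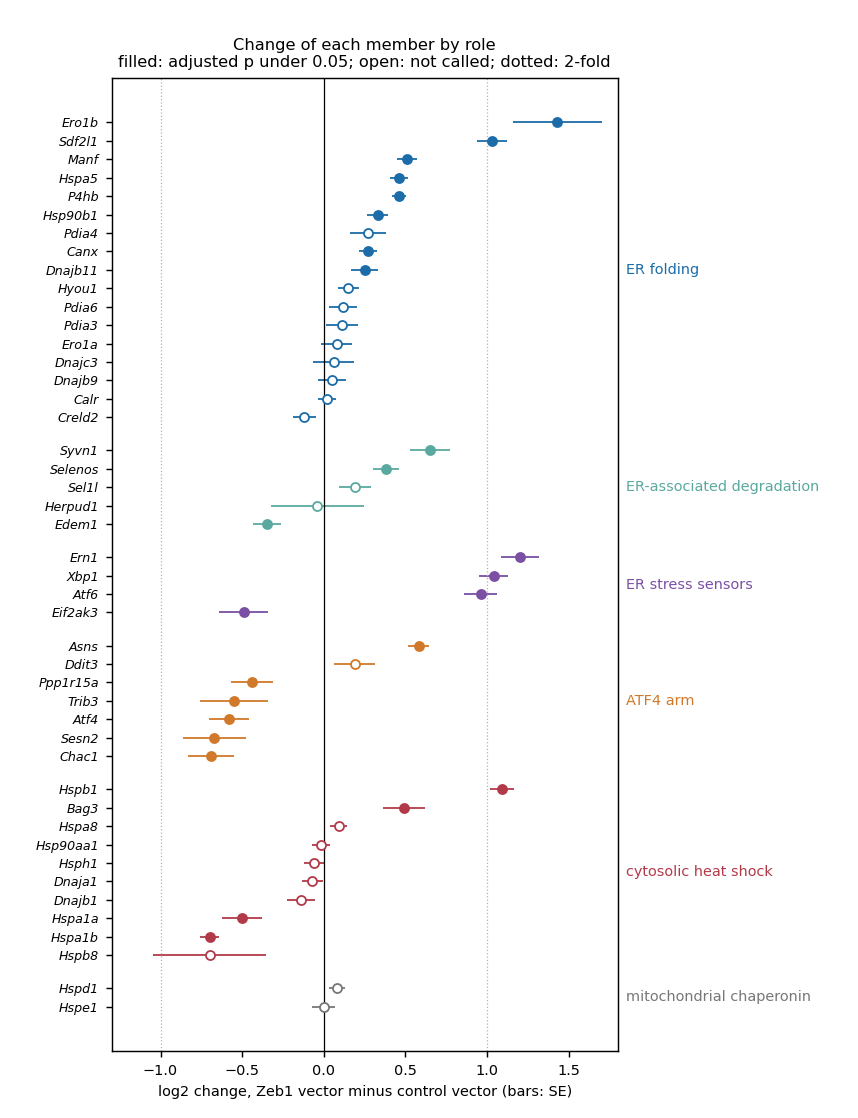
Log2 change (Zeb1 vector minus control vector, x axis) of the 45 measured members, listed by role; bars are SE, filled points passed the adjusted p of 0.05 and open points did not. Ern1, Xbp1 and Atf6 lie near 1 and Eif2ak3 below 0, the ER folding genes lie between -0.12 and 1.43, and 5 of the 7 ATF4 arm genes are filled points below 0.

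Among the arrays, each had been scaled to a trimmed mean linear signal of 500. Zeb1, on its brightest probe set, was 4.45, 4.45 and 4.50 on the control arrays, of which 2 were at the floor, and 9.71, 9.59 and 9.78 on the Zeb1 arrays, at least 37.4-fold higher. Another of its 4 probe sets rose by 1.17 (adjusted p = 0.00895 over probe sets) and the remaining 2 did not pass the filter. The 3' minus 5' signal of the Gapdh control probe sets was -0.34 to -0.31 in control and -0.41 to -0.31 in Zeb1 arrays, and that of actin 0.05 to 0.08 and 0.00 to 0.19 in the same order. Of 9 epithelial and lung lineage markers, Krt7, Epcam, Cdh1 and Krt8 fell (changes of -8.31, -7.05, -4.01 and -0.16), Krt18, Krt19 and Sftpc were not called, and Nkx2-1 and Scgb1a1, which define lung lineages, did not pass the filter. Of 7 leukocyte markers 3 were tested, and of 5 endothelial markers 1, and 0 of these 4 were called. In a bulk culture, fewer cells of a kind and less RNA per cell cannot be told apart.

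The sensors of the IRE1 and ATF6 branches rose about 2-fold, and the sensor of the PERK branch fell. Ern1, which encodes IRE1, was 8.68, 9.09 and 8.90 on the control arrays and 10.12, 10.10 and 10.06 on the Zeb1 arrays. All 3 Zeb1 arrays lay above every control array, and the rise was 1.20 (SE 0.115, 2.30-fold, adjusted p = 1.37e-05). Xbp1, the transcription factor whose mRNA IRE1 splices, was 11.40, 11.21 and 11.16 in control and 12.36, 12.37 and 12.15 in Zeb1 cells, a rise of 1.04 (SE 0.087, 2.05-fold, adjusted p = 5.21e-06). Its other 3 probe sets rose too, by 0.67 to 1.09. The spliced and unspliced forms of Xbp1 were not told apart here.

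Atf6, the membrane-bound factor of its own branch, went from 8.95, 8.99 and 9.09 to 9.97, 9.85 and 10.10, again with no overlap, a rise of 0.96 (SE 0.101, 1.95-fold, adjusted p = 2.53e-05). On its other probe sets it rose by 0.54 and 1.50. Ern1 was less uniform: its second tested probe set had a change of 0.58 (adjusted p = 0.101 over probe sets), and its remaining 3 did not pass the filter. Eif2ak3, encoding PERK, was 8.88, 9.17 and 8.71 in control and 8.55, 8.23 and 8.51 in Zeb1 cells. It fell by 0.49 (SE 0.15, 1.41-fold, adjusted p = 0.0192), opposite in direction to Ern1, Xbp1 and Atf6. The call of Eif2ak3 was lost when control vector replicate 2 (adjusted p = 0.0638) or Zeb1 vector replicate 2 (0.0691) was left out, and with no filter on low signals (0.0794), while the calls of Ern1, Xbp1 and Atf6 held when any 1 array was left out.

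Of the 17 chaperones and folding enzymes of the ER tested, 8 rose (47.1%), 0 fell and 9 were not called, where 26.4% of all genes rose and 24.1% fell. The median change was 0.25, against 0.01 over all genes. Of the 17 changes 16 were above 0, where 6090 of all 11893 genes tested had a change above 0. Averaged over the 17 genes, after each gene's mean over the 6 arrays was subtracted, the control arrays lay at -0.163, -0.162 and -0.159 and the Zeb1 arrays at 0.159, 0.159 and 0.167. The arrays within a group thus differed far less in this average than the groups did. Averaged in the same way, the sensors had no overlap, at -0.392 to -0.243 in control and 0.278 to 0.392 in Zeb1 arrays. The ATF4 arm had none either, but its groups nearly met. Its control arrays lay at 0.008 to 0.234 and its Zeb1 arrays at -0.3 to -0.013. The degradation, cytosolic heat shock and mitochondrial chaperonin genes did overlap. The average is a description of listed genes and was given no test.

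Hspa5 (BiP), the main Hsp70 of the ER, which also holds the 3 sensors inactive in unstressed cells, was 13.68, 13.50 and 13.58 in control and 14.07, 14.02 and 14.05 in Zeb1 cells. It rose by 0.46 (SE 0.054, 1.38-fold, adjusted p = 5.19e-05), with every Zeb1 array above every control array. A second probe set rose by 0.49, but its dimmest fell by 0.22 (adjusted p = 0.0373 over probe sets), the single case among the members of a rise and a fall within 1 gene, and with the mean of its 3 probe sets the rise was 0.25 (adjusted p = 0.00184). Hsp90b1, the ER form of Hsp90, rose by 0.33 (SE 0.063, adjusted p = 0.0015), from 12.73, 12.93 and 12.83 to 13.14, 13.13 and 13.21. Dnajb11, a J-domain cochaperone of BiP, rose by 0.25 (SE 0.082, adjusted p = 0.0265). This call was lost when control vector replicate 2 or 3 (adjusted p = 0.0632 and 0.0927) or Zeb1 vector replicate 1 or 2 (0.0645 and 0.115) was left out, and with no filter (0.0588).

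Sdf2l1, a partner of BiP and Dnajb11, had the second largest rise of the 17 after Ero1b. It was 10.26, 10.31 and 10.27 on the control arrays and 11.48, 11.34 and 11.13 on the Zeb1 arrays, a rise of 1.03 (SE 0.094, 2.05-fold, adjusted p = 9.43e-06). Manf, a secreted ER stress factor, went from 12.77, 12.68 and 12.87 to 13.25, 13.27 and 13.32, a rise of 0.51 (SE 0.06, 1.43-fold, adjusted p = 5.75e-05). Neither gene showed overlap between the groups. Creld2, another ER stress-induced protein, was not called: its change was -0.12 (SE 0.07, adjusted p = 0.186), and its groups did not overlap, with 11.28, 11.19 and 11.13 in control and 11.10, 11.10 and 11.04 in Zeb1 cells.

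Among enzymes that form and shuffle disulfide bonds, P4hb, a protein disulfide isomerase that is also a subunit of collagen prolyl 4-hydroxylase, was 13.40, 13.41 and 13.45 in control and 13.85, 13.88 and 13.90 in Zeb1 cells. The rise of 0.46 (SE 0.045, 1.37-fold, adjusted p = 1.6e-05) left a wide gap between the groups. Its relatives Pdia3, Pdia4 and Pdia6 did not pass the test, at changes of 0.11, 0.27 and 0.12 (adjusted p = 0.392, 0.065 and 0.281). Pdia4 did pass when control vector replicate 1 (0.39, adjusted p = 0.00746) or Zeb1 vector replicate 1 (0.33, adjusted p = 0.0475) was left out. Ero1b, an oxidase that recharges the isomerases, had the largest change of all 45 members, though from a variable start. It was 6.89, 8.17 and 7.35 in control and 8.87, 8.81 and 9.0 in Zeb1 cells, a rise of 1.43 (SE 0.271, 2.69-fold, adjusted p = 0.00142), or 0.93 with the mean of its probe sets. A second probe set of Ero1b was not called (0.43, adjusted p = 0.343 over probe sets), and the remaining one did not pass the filter. Its paralogue Ero1a had a change of 0.08 (SE 0.095, adjusted p = 0.537).

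The lectin chaperones, which hold glycoproteins during folding, were split. The membrane-bound Canx rose by 0.27 (SE 0.054, 1.21-fold, adjusted p = 0.00198), from 13.64, 13.58 and 13.57 to 13.83, 13.81 and 13.96, while neither of its other 2 probe sets passed (0.15 and 0.27). The soluble Calr stayed within its own spread, at 12.47, 12.47 and 12.49 in control and 12.45, 12.47 and 12.58 in Zeb1 cells (change 0.02, SE 0.056, adjusted p = 0.797), and its 3 probe sets gave 0.00 to 0.02. Hyou1, a nucleotide exchange factor for BiP, had a change of 0.15 (adjusted p = 0.0756) with no overlap between groups, and was called up with quantile normalization (0.18, adjusted p = 0.0324) and with no filter (adjusted p = 0.0144). Dnajb9 and Dnajc3, J-domain proteins of the ER, had changes of 0.05 and 0.06 (adjusted p = 0.659 and 0.704). Of the other 4 probe sets of Dnajc3, 1 rose by 0.53 (adjusted p = 0.0274 over probe sets) and 3 were not called.

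Genes with and without an exact match to the ER stress element in the promoter overlapped in their changes. The 9 genes shown above with the element had changes from -0.12 (Creld2) to 1.43 (Ero1b), with a median of 0.27, and 5 of them rose. The 11 ER folding and degradation genes whose promoters lacked an exact match ranged from -0.35 to 1.03, with a median of 0.19, and 4 rose and 1 fell. All of these genes but Pdia3 (no CCACG) and Ero1a (no CCAAT) held both CCAAT and CCACG in another arrangement. Variants of the element were not searched, so the groups differ in the exact arrangement and mostly not in its parts. The difference between these small groups was not tested. Over all genes tested, 26.4% rose and 24.1% fell, with a median change of 0.01.

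**Figure D2:**
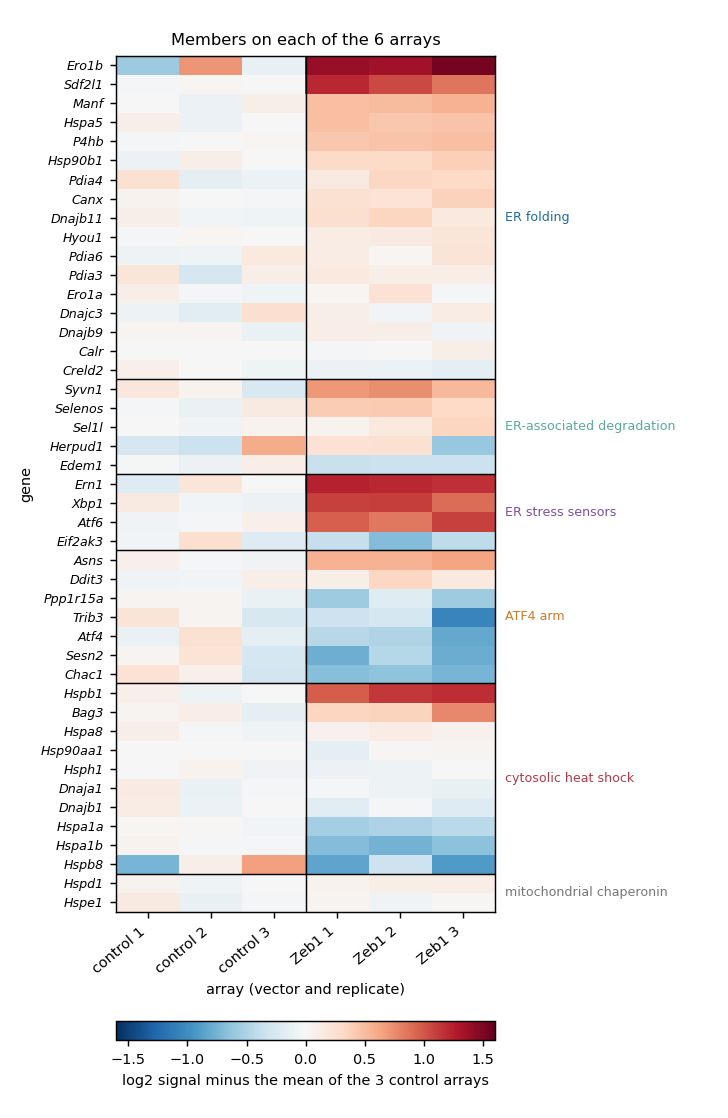
Log2 signal of each member (rows, by role) on each array (columns), minus the mean of its 3 control arrays; red is higher and blue lower. Ern1, Xbp1, Atf6, Sdf2l1, Ero1b and Hspb1 are red on all 3 Zeb1 arrays, most ATF4 arm genes and Hspa1b are blue there, and Herpud1 and Hspb8 vary within the groups.

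Genes of ER-associated degradation, which draws misfolded proteins back to the cytosol for the proteasome, were mixed in direction. Of 5 tested, 2 rose, 1 fell and 2 were not called, against 26.4% and 24.1% of all genes. Syvn1, the membrane ubiquitin ligase Hrd1, was 9.71, 9.58 and 9.28 in control and 10.22, 10.27 and 10.05 in Zeb1 cells, a rise of 0.65 (SE 0.122, 1.57-fold, adjusted p = 0.00127). Its other probe set also rose, by 0.31. Selenos, a selenoprotein of the same membrane complex, rose by 0.38 (SE 0.079, 1.30-fold, adjusted p = 0.00245). A second probe set of Selenos rose by 0.25, and the remaining one was not called (0.4, adjusted p = 0.268 over probe sets). Sel1l, the adaptor of Syvn1, had a change of 0.19 (adjusted p = 0.131), with no overlap between groups. A dimmer probe set of Sel1l rose by 0.51 (adjusted p = 0.0412 over probe sets), and its other 3 were not called (-0.23 to 0.20).

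Edem1, a lectin-like protein that hands over glycoproteins for degradation, was 10.34, 10.26 and 10.47 in control and 10.00, 10.01 and 10.02 in Zeb1 cells. It fell by 0.35 (SE 0.085, 1.27-fold, adjusted p = 0.00613), a call lost with the mean of its 2 probe sets (-0.15, adjusted p = 0.118), since the other had a change of 0.05. Herpud1, a stress-induced scaffold of the ligase complex, varied widely within both groups. Its values were 8.61, 8.54 and 9.48 in control and 9.11, 9.12 and 8.27 in Zeb1 cells (change -0.04, SE 0.283, adjusted p = 0.923).

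Most genes of the ATF4 arm fell. Of its 7 genes 5 fell (71.4%, against 24.1% of all genes), 1 rose and 1 was not called, with a median change of -0.55 and no change of 2-fold. Atf4 itself, the transcription factor made when PERK or its relatives phosphorylate eIF2alpha, was 11.93, 12.28 and 11.90 on the control arrays and 11.60, 11.56 and 11.22 on the Zeb1 arrays. Every Zeb1 array lay below every control array, and the fall was 0.58 (SE 0.123, 1.49-fold, adjusted p = 0.00285). A second probe set fell by 0.55. ATF4 is regulated largely through translation, which arrays do not measure.

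Chac1, a glutathione-degrading enzyme induced by ATF4, was 9.72, 9.57 and 9.19 in control and 8.81, 8.85 and 8.75 in Zeb1 cells, a fall of 0.69 (SE 0.139, 1.62-fold, adjusted p = 0.00192). Sesn2, an inhibitor of mTORC1 signalling that senses leucine, went from 7.89, 8.06 and 7.56 to 7.06, 7.39 and 7.05, a fall of 0.67 (SE 0.193, adjusted p = 0.0147). Ppp1r15a, the phosphatase subunit GADD34 that reverses eIF2alpha phosphorylation, went from 9.35, 9.34 and 9.20 to 8.73, 9.11 and 8.73, a fall of 0.44 (SE 0.129, adjusted p = 0.0159). None of the 3 showed overlap between the groups, although the nearest arrays of Ppp1r15a, at 9.20 and 9.11, were close. Trib3, a pseudokinase that dampens ATF4 output, fell by 0.55 (SE 0.208), at an adjusted p of 0.0491 that barely passed. Its values were 9.34, 9.17 and 8.87 in control and 8.80, 8.85 and 8.07 in Zeb1 cells, and over single probe sets neither of its 2 was called (adjusted p = 0.0579 and 0.073).

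Several of these calls rested on single arrays. When control vector replicate 1 was left out the arm had 3 falls, the calls of Ppp1r15a (adjusted p = 0.0501) and Trib3 (-0.31, 0.168) being lost. Leaving out control vector replicate 2 gave 3 as well, with Sesn2 (0.059) and Trib3 (0.0977) lost. Ppp1r15a was also lost without Zeb1 vector replicate 1 (0.055), and Trib3 without Zeb1 vector replicate 2 (-0.37, 0.105) or 3 (-0.30, 0.127). With no filter on low signals, which raised the number of genes tested to 18193, 1 of the 5 falls was called, that of Chac1, while Atf4 just missed (adjusted p = 0.0512). The falls of Atf4 and Chac1 held when any 1 array was left out.

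Asns, asparagine synthetase and a standard ATF4 target, was the exception in the arm. It was 11.50, 11.39 and 11.37 in control and 11.97, 11.97 and 12.05 in Zeb1 cells, a rise of 0.58 (SE 0.065, 1.49-fold, adjusted p = 4.42e-05), and its other probe set rose by 0.69. Ddit3, the death-promoting factor CHOP, had a change of 0.19 (SE 0.125, adjusted p = 0.233) with overlapping groups, at 8.29, 8.30 and 8.44 against 8.43, 8.67 and 8.50. CHOP was thus the single gene of the arm that was not called.

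Cytosolic heat shock genes had no common direction. Of the 10 tested, 2 rose and 2 fell (20% each, against 26.4% and 24.1% of all genes), and the median change was -0.07. The difference in direction between this group and the ER folding genes was not tested. Hspa1a and Hspa1b, neighbouring genes for near-identical stress-inducible Hsp70 proteins, both fell. On the Hspa1b probe set the control arrays were 12.30, 12.23 and 12.22 and the Zeb1 arrays 11.55, 11.49 and 11.59, a fall of 0.70 (SE 0.06, 1.63-fold, adjusted p = 6.15e-06). Its other 2 probe sets fell by 0.76 and 1.12, and Hspa1a fell by 0.50 (SE 0.124, adjusted p = 0.00731). Because the pair is so alike in sequence, signal assigned to either gene may come from both.

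Hspa8 and Hsp90aa1 were not called on their brightest probe sets. Hspa8, the constitutive Hsp70, was 14.75, 14.63 and 14.58 in control and 14.72, 14.77 and 14.72 in Zeb1 cells (change 0.09, SE 0.05, adjusted p = 0.181). Leaving out control vector replicate 1 (0.13, adjusted p = 0.0199) or normalizing by cyclic loess (0.11, adjusted p = 0.0225) gave a call upward. Hsp90aa1, the inducible cytosolic Hsp90, was 14.19, 14.19 and 14.18 against 14.05, 14.21 and 14.23 on its brightest probe set (change -0.02, adjusted p = 0.754). On 2 dimmer probe sets it fell, by 0.36 and 0.63 (adjusted p = 0.00195 and 0.00497 over probe sets), and with the mean of probe sets its change was -0.34 (adjusted p = 0.00481). Hsph1, Dnaja1 and Dnajb1, cochaperones of Hsp70, did not pass the test, at -0.06, -0.07 and -0.14, although a dimmer probe set of Hsph1 fell by 0.21 and one of Dnaja1 by 0.28.

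Of the small heat shock proteins Hspb1 and Hspb8 and their partner Bag3, 2 rose and Hspb8 was not called. Hspb1 (Hsp27), which binds unfolding proteins and actin filaments, was 11.62, 11.46 and 11.55 in control and 12.51, 12.67 and 12.72 in Zeb1 cells. Its rise of 1.09 (SE 0.074, 2.13-fold, adjusted p = 1.14e-06) was the largest in the cytosolic group, and its other probe set rose by 0.75. Bag3, a cochaperone that links Hsp70 and small heat shock proteins to autophagy, went from 9.87, 9.94 and 9.68 to 10.17, 10.19 and 10.60, a rise of 0.49 (SE 0.128, adjusted p = 0.00893, or 0.0692 with no filter). On the brightest probe set of Hspb8, which binds Bag3, the values were 6.56, 7.40 and 7.97 against 6.46, 6.98 and 6.40 (change -0.70, SE 0.344, adjusted p = 0.122). For this probe set, leaving out control vector replicate 1 gave a call downward (-1.07, adjusted p = 0.0127), and leaving out control vector replicate 3 a change of -0.36 (adjusted p = 0.41). A second probe set was 7.39, 7.65 and 7.38 in control and 4.45, 5.40 and 5.40 in Zeb1 cells, with 1 array at the floor. That probe set passed the filter through its 3 control arrays alone, so its values are a description, and its p and that of the mean with the brightest one support no fall.

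The mitochondrial chaperonin, a barrel of Hspd1 (Hsp60) capped by Hspe1 (Hsp10), had 0 calls. Hspd1 was 14.00, 13.87 and 13.95 against 13.99, 14.04 and 14.05 (change 0.08, SE 0.049, adjusted p = 0.187), though called up after cyclic loess (0.11, adjusted p = 0.0209). Hspe1 was 13.21, 12.95 and 13.05 against 13.11, 13.02 and 13.09 (change 0.00, SE 0.07, adjusted p = 0.998).

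**Figure D3:**
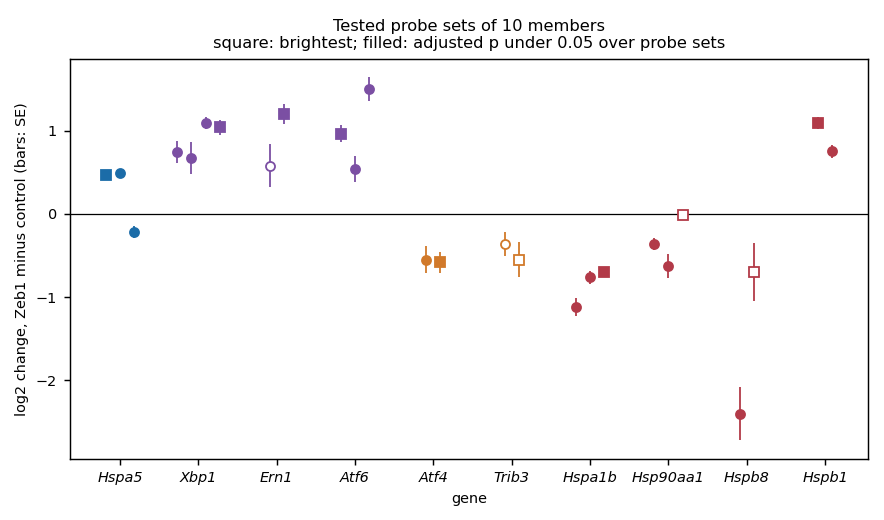
Log2 change (y axis, bars are SE) of every tested probe set of 10 members; squares mark the brightest probe set of a gene and filled symbols passed the adjusted p of 0.05 over probe sets. The probe sets of Xbp1, Atf6, Atf4, Hspa1b and Hspb1 lie on 1 side of 0, whereas those of Hspa5 lie on both and those of Hsp90aa1 and Hspb8 differ in size. The filled symbol of Hspb8 is a probe set that passed the filter through its control arrays alone, so its p supports no fall.

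Over single probe sets, the members had 108, of which 95 were tested. Of these 28 rose (24.5% of all tested probe sets did) and 17 fell (21.6% of all did). The falls include the Hspb8 probe set that passed the filter through its control arrays alone. Among the 30 members with several tested probe sets, 17 had the same call on all of them, 12 had both called and uncalled ones, and Hspa5 had a rise and a fall. Hspb8 is among the 12 through that same probe set.

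Other genes of the same pathways, from lists of textbook members, were counted in the same way against 26.4% of all genes up and 24.1% down. Of 47 tested genes of ER folding, translocation and retrieval outside the 17 above, 27 rose (57.4%) and 0 fell, with a median change of 0.38. Serpinh1, an ER chaperone of collagen that was listed with the cytosolic chaperones and is named here after its values were seen, fell by 0.54 (adjusted p = 0.000704), so the count of 0 depends on where it is listed. The largest rises were those of Sec11c, a catalytic subunit of the signal peptidase (9.73 ± 0.116 to 12.27 ± 0.120, SD, n = 3 each, 5.79-fold), of Fkbp14, a prolyl isomerase of collagen folding (6.27 ± 0.368 to 8.43 ± 0.086, 4.49-fold), and of Hspa13, an ER-associated Hsp70 (10.72 ± 0.094 to 12.44 ± 0.133, 3.31-fold). Their adjusted p-values were 1.11e-08, 1.67e-05 and 9.76e-08. All 3 changes were larger than that of any of the 17 ER folding genes in the member list.

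Among 23 further degradation genes 9 rose and 7 fell, with a median of 0.12. Erlec1, a lectin of misfolded glycoproteins, rose by 1.30, Derl2, a channel protein, by 0.89 and Edem3 by 0.60, whereas the ubiquitin-conjugating enzyme Ube2g2 fell by 0.84, Fam8a1 by 0.69 and Man1b1 by 0.42 (adjusted p = 0.0497). For Man1b1 no call was left on omitting control vector replicate 1, 2 or 3 (adjusted p = 0.119, 0.0777 and 0.086) or Zeb1 vector replicate 1 or 2 (0.154 and 0.139). Among 12 further ER stress regulators 2 rose and 4 fell. Creb3l2, a membrane-bound relative of ATF6, went from 7.68 ± 0.203 to 10.00 ± 0.183 (SD, n = 3 each, 4.99-fold, adjusted p = 5.56e-07). Traf2 and Bak1, which bind IRE1, fell by 0.52 and 0.47, and Nfyb, a subunit of the factor that binds CCAAT, by 0.46. With the mean of its probe sets the change of Bak1 was -0.73. The kinase Map3k5 (ASK1) passed at a rise of 0.26 (adjusted p = 0.0494), but not on omitting control vector replicate 1 or 3 (adjusted p = 0.131 and 0.16) or Zeb1 vector replicate 1, 2 or 3 (0.118, 0.0914 and 0.0908).

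Of 42 further genes of the ATF4 pathway 14 rose and 7 fell, with a median of 0.07. That list thus had a median near 0, where the 7-gene arm had -0.55; the difference was not tested. The cysteine-synthesis enzyme Cth rose by 1.78 (8.39 ± 0.149 to 10.18 ± 0.091, SD, n = 3 each, adjusted p = 6.05e-07), the mitochondrial enzyme Pck2 by 1.71 and the cystine transporter Slc7a11 by 1.29. Ddit4, a stress-induced inhibitor of mTORC1 like Sesn2, fell by 1.27 (10.82 ± 0.212 to 9.55 ± 0.041, adjusted p = 6.43e-06), the glutamine transporter Slc1a5 by 0.78 and the tryptophanyl-tRNA synthetase Wars by 0.36 (a change of -0.61 with the mean of its probe sets).

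Of 45 further cytosolic chaperones 10 rose (22.2%) and 21 fell (46.7%), with a median of -0.13. The rises include Dnaja4, whose limits are given below, and the falls include Serpinh1, an ER chaperone. Cryab, a small heat shock protein, fell by 1.96 (10.40 ± 0.116 to 8.43 ± 0.227, SD, n = 3 each, adjusted p = 8.91e-07), its relative Hspb2 by 1.78 and the Hsp70 exchange factor Bag5 by 1.00. Against these, Hspa4l, an Hsp110 of the same family as Hsph1, rose by 1.94 (9.81 ± 0.052 to 11.76 ± 0.012, adjusted p = 1.24e-08) and the cochaperone Dnajb4 by 1.93. In control cells the 3 arrays of Dnaja4, a J-domain cochaperone, were all at the floor, and in Zeb1 cells it was at 7.56 ± 0.164, at least 8.65-fold higher; it passed the filter through the Zeb1 arrays alone. With the floor at the 50th percentile its change was 1.23, and with no filter another probe set stood for it (0.78, adjusted p = 0.199).

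Of 11 further mitochondrial chaperones and proteases 2 rose and 4 fell. Hspa9, the mitochondrial Hsp70, rose by 0.28 and Atf5, a regulator of mitochondrial stress that the ATF4 list also holds, by 0.38, whereas the protease subunit Clpp fell by 0.86, Lonp1 by 0.49 and Yme1l1 by 0.30. Lonp1, whose groups overlapped, lost its call on omitting control vector replicate 1 or 2 (adjusted p = 0.0679 and 0.12) or Zeb1 vector replicate 1 or 2 (0.124 and 0.11). Yme1l1 lost its call on omitting control vector replicate 1 or 3 (0.0596 and 0.0595), and with the mean of its probe sets its change was -0.03 (adjusted p = 0.784).

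**Figure D4:**
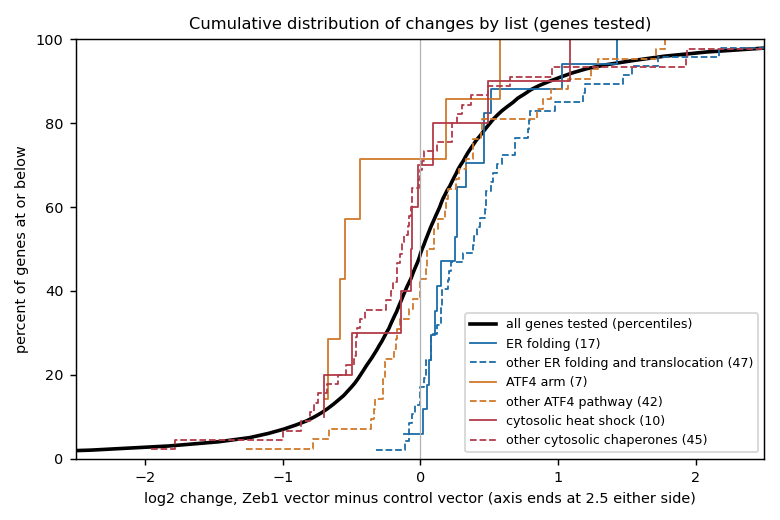
Percent of genes (y axis) with a log2 change at or below the value on the x axis, for all tested genes (black) and for 3 member groups (solid) and the matching lists of other pathway genes (dashed), with the number tested in brackets. Both ER folding curves lie to the right of the black curve over its middle, the ATF4 arm lies to the left up to about 0 while the longer ATF4 list does not, and the cytosolic chaperone curves lie close to or left of it around their medians of -0.07 and -0.13.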

How the data were processed

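The authors deposited 1 table of log2 values, a log2 MAS5 signal for each of 45101 probe sets on 6 arrays; MAS5 is named in the submitters' processing notes, with its version not given in the sources used here. Out of log2, 100% of values were multiples of 0.1 (tolerance 0.01 multiples) and the 2% trimmed mean was 500 on each array. Control vector replicate 2 lacked 2 values, which were set to the floor.

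Signals below the pooled 25th percentile (log2 4.45, linear 21.8) were raised to it. A probe set was tested if 3 or more of the 6 arrays had it at or above their own median. Control probe sets (64) and those with several symbols (932) or none (9160) were left out, which left 34945, of which 34741 were in the RefSeq table (GRCm38.p6) and 0 changed symbol. Of these 20594 passed, for 11893 genes. The groups were compared in R 4.3.3 with the limma package, version 3.58.1 (lmFit, eBayes with an intensity trend; labels read with jsonlite 2.0.0), Benjamini-Hochberg adjusted over genes at 0.05, or over probe sets where said. Errors are SE of log2 changes (median 0.129) or SD. Precision is limited by having 3 arrays a group. The fit was tested on simulated data.

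The members and lists were chosen with earlier results of these data known. Every member could be named; of each other list, up to 3 called genes with the largest rise and 3 with the largest fall. Serpinh1, an ER chaperone of collagen, is counted in the list of other cytosolic chaperones. Alternatives were another floor or none, 2 other filters, quantile and cyclic loess normalization, the mean of probe sets, no trend, the replicate number as a block, and leaving out each array. Protein sequences were not used here.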

Additional observations from a re-analysis of the deposited data

How the results depend on the processing

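Of the 25 called members, 25 kept their call and direction with the replicate block, with no floor, with the stricter filter, with quantile normalization and with cyclic loess, 24 with the mean of probe sets and with a floor at the 50th percentile, 23 with no intensity trend, 21 to 24 when 1 array was left out, and 18 with no filter. No called member changed sign under any of these settings. The replicate numbers did not pair the samples: deviations of same-numbered arrays correlated at 0.039, -0.027 and -0.069, and with the replicate block 3078 genes rose and 2799 fell, 16 and 9 of them members; of the genes named above, Man1b1 and Map3k5 lost their calls (adjusted p = 0.0608 and 0.0712).

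With no filter 2816 and 2550 of 18193 genes rose and fell (15.5% and 14.0%), and 4 members fell, with 1 in the ATF4 arm and 0 sensors, while 1 cytosolic gene rose; more, mostly dim, genes were then tested. With the mean of probe sets 4 cytosolic genes fell and 0 degradation genes did; Hspb8 is among the 4 through a probe set that passed the filter on its control arrays alone. With cyclic loess 1 subunit of the mitochondrial chaperonin rose. When 1 array was left out, 3 to 5 ATF4 arm genes and 0 to 1 sensors fell. Quantile normalization moved the median change of all genes from 0.01 to -0.02, and that of ER folding genes from 0.25 to 0.26. No member had an array at the floor on its brightest probe set, but detection above background was not assessed. The brightest Hspb8 probe set, with arrays from 6.40 to 7.97, came near the array medians of 6.15 to 6.44.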

Other observations

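The genes of this paragraph were chosen after their values were seen. Within the longer ATF4 list, the 3 enzymes of serine synthesis rose together, Phgdh by 0.20 (adjusted p = 0.00341), Psat1 by 0.85 (adjusted p = 5.44e-07) and Psph by 1.07 (adjusted p = 1.03e-06). Of the 7 amino acid transporter genes tested in that list, Slc1a4 rose by 0.95 (adjusted p = 0.000186) and Slc7a11 by 1.29, Slc3a2, Slc38a2 and Slc1a5 fell (changes of -0.26, -0.27 and -0.78), and Slc7a3 was not called (-0.66, adjusted p = 0.078, or 0.0374 with quantile normalization and 0.0401 with cyclic loess). The remaining one, Slc7a5, fell by 0.26 (adjusted p = 0.0311). The call of Slc7a5 was lost on omitting control vector replicate 2 (adjusted p = 0.101) or Zeb1 vector replicate 1 or 3 (0.0895 and 0.0685), that of Slc38a2 with the mean of its probe sets (adjusted p = 0.0945) and that of Phgdh with no intensity trend (adjusted p = 0.0578). Of the receptors that return escaped chaperones to the ER, Kdelr1 and Kdelr2 rose by 0.38 and 0.59, and Kdelr3 had a change of -0.11 (adjusted p = 0.723). Beside Sec11c, the signal peptidase subunits Spcs2 and Spcs3 rose by 0.51 and 0.47, while Spcs1 and Sec11a were not called (0.04 and 0.16, adjusted p = 0.657 and 0.0613). Sec11a passed with quantile normalization (adjusted p = 0.0149), with cyclic loess (0.0188) and without control vector replicate 1 (0.0128). Among small heat shock proteins, Hspb6 rose by 0.65 (adjusted p = 0.00157), as Hspb1 did, while Cryab and Hspb2 fell.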
